A study of Homo sapiens with 12 samples.

Results

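Transcript levels of 38 genes of homologous recombination, the Fanconi anaemia pathway and the DNA damage checkpoint were followed in RBE cells, an established human cholangiocarcinoma line, by poly(A) RNA sequencing. The genes were taken by symbol from a list, and all 38 were found among the 55773 gene entries of the count table. All 38 also passed the filter on low counts that left 15691 genes for testing. The study asked how 2-hydroxyglutarate, the metabolite made by mutant IDH1, alters gene expression directed by p53. AG-120 (ivosidenib) inhibits mutant IDH1, and Nutlin inhibits MDM2, the ubiquitin ligase that holds p53 down. AG120_Nutlin cells received 5 µM AG-120 for 22 days and then 5 µM Nutlin for 72 hours, and vehicle_Nutlin cells received vehicle (DMSO) for 22 days and then the same Nutlin dose. AG120 cells received the 22 days of AG-120 and then DMSO in place of Nutlin. Vehicle cells received the 22 days of vehicle and then DMSO, as the sample titles give for both groups. Each of the 4 groups held 3 libraries of this 1 cell line, which carries mutant IDH1. The labels do not say whether the libraries of a group came from separate cultures, and the p-values then reflect only the spread among these libraries, which may be technical.

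Homologous recombination repairs a broken chromosome by copying the sister chromatid, and therefore works mainly in S and G2 phase. Broken ends are first resected to single strands, BRCA1 and PALB2 bring in BRCA2, and strand exchange with the sister then starts with the help of a family of paralog proteins that includes RAD51C, RAD51D, XRCC2 and XRCC3. The Fanconi pathway removes crosslinks between DNA strands: its core complex attaches ubiquitin to FANCD2 and FANCI, which then direct nucleases and homologous recombination to the lesion. The kinases ATM and ATR, with CHEK2 and CHEK1 downstream, hold the cell cycle while repair goes on. Many of these genes are known targets of E2F factors in S phase, and p53 is known to lower such genes by way of p21 and the retinoblastoma family.

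The promoters of 5 genes are shown: those of the 4 genes with the most negative log2 fold changes after Nutlin in vehicle cells (CLSPN, EXO1, FANCB and POLQ) and that of RAD51C, the 1 gene that rose. Each run holds 250 bases before to 50 bases after the RefSeq transcript start on the gene's own strand, 5′ to 3′ (GRCh38.p14). CLSPN is at chr1:35769929-35770228 on the minus strand, EXO1 at chr1:241847954-241848253 on the plus strand, FANCB at chrX:14873020-14873319 on the minus strand, POLQ at chr3:121545939-121546238 on the minus strand, and RAD51C at chr17:58692323-58692622 on the plus strand. Capitals mark matches to TTTNNCGC, a core of the E2F motif, on either strand. RefSeq gives EXO1 and RAD51C 2 start sites each, and the window lowest in coordinate is shown.
CLSPN: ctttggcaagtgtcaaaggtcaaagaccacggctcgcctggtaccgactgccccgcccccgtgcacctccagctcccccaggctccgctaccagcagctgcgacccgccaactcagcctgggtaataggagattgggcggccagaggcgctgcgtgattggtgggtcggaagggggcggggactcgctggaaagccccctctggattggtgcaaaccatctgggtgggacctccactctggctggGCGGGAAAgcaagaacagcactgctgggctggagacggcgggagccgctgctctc
EXO1: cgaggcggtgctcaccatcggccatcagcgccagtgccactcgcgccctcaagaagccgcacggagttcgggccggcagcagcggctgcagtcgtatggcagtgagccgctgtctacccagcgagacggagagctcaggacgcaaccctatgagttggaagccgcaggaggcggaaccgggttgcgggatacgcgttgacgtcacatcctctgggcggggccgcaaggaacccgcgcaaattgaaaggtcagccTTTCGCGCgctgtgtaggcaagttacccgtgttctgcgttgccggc
FANCB: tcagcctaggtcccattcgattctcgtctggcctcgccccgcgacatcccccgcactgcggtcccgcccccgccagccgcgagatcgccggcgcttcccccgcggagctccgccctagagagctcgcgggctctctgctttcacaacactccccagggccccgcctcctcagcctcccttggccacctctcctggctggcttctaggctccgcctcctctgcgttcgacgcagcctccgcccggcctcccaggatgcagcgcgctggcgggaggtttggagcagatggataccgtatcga
POLQ: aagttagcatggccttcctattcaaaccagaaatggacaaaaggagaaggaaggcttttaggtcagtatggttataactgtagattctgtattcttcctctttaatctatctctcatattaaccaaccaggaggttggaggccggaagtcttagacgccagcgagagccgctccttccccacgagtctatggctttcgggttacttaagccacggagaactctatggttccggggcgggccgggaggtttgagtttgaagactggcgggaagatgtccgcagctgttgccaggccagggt
RAD51C: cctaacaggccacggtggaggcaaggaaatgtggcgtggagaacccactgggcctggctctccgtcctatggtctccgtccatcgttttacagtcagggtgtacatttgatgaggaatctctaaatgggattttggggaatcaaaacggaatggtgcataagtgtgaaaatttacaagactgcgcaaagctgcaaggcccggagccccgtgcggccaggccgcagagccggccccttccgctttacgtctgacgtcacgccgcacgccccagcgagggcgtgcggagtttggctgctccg
The CLSPN and EXO1 windows shown each held 1 match, and the FANCB, POLQ and RAD51C windows held 0. Of the 38 genes, the promoters of 34 were searched, and those of FANCI, RMI2, NBN and RAD54B were left out of the search. The TTTNNCGC core was present in 8 of these 34 (23.5%): CLSPN, EXO1, XRCC2, FANCA, FANCD2, TOPBP1, RMI1 and CHEK2. Among the promoters of 10064 tested genes, windows of the same length held it in 12.7%. It was present in 5 of the 16 promoters of genes that fell at least 4-fold after Nutlin in vehicle cells, and in 3 of the other 18. CCAAT, the box bound by NF-Y, was present in 16 of 34 promoters (47.1%), against 43.0% of all, and TTTGAA, the core of the cell cycle homology region, in 3 (8.82%), against 13.7% of all. Both strands were searched, and matches of different motifs were counted separately whether or not they overlapped. A pair of p53 consensus half-sites up to 13 bases apart was found in 0 of the 34 windows and in 0.0397% of all. These counts are descriptions of letters in a window and were not tested.

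Library totals ran from 16840161 to 27499433 counts. The p53 targets MDM2 and CDKN1A (the gene of the cell cycle inhibitor p21) were far higher with Nutlin: MDM2 rose 20.5-fold in AG-120 cells and 19.5-fold in vehicle cells, and CDKN1A rose 22.9-fold in AG-120 cells and 22.2-fold in vehicle cells. Nutlin also lowered 7 of 8 proliferation markers in both backgrounds, PCNA being the exception (higher by 1.01 on the log2 scale in AG-120 cells and by 0.80 in vehicle cells). The summed level of these markers was 544 to 568 CPM (read counts relative to library size, scaled by TMM, a normalization to the bulk of genes) in AG120_Nutlin, 523 to 657 in vehicle_Nutlin, 2110 to 2340 in AG120 and 2410 to 2530 CPM in vehicle. PCNA made up most of the sums with Nutlin, at a mean of 513 CPM in AG120_Nutlin and 521 CPM in vehicle_Nutlin. The 7 markers that fell did so by 11.4-fold (MCM2) to 96.6-fold (CCNA2) in AG-120 cells. In vehicle cells their falls ran from 11.2-fold (MCM2) to 107-fold (MKI67). The MKI67 fall was uncertain in size (log2 fold change -6.74, standard error 0.77). MKI67 had 6.3, 10.4 and 0.0855 CPM in vehicle_Nutlin replicates 1, 2 and 3. Biliary epithelial markers summed to 4950 to 5200, 6300 to 8180, 6180 to 7840 and 5510 to 5860 CPM in AG120_Nutlin, vehicle_Nutlin, AG120 and vehicle, and leukocyte markers to at most 0.685 CPM in any library. Of 6 fibroblast markers DCN and LUM had 0 counts in all libraries and COL1A2 and COL3A1 at most 0.36 CPM, while COL1A1 (17.3 to 23.2 CPM) and PDGFRB (15.7 to 25.8 CPM) were present without Nutlin. The fibroblast list summed to 2.41 to 3.16 CPM in AG120_Nutlin, 2.91 to 5.29 in vehicle_Nutlin, 38.6 to 43.4 in AG120 and 36.0 to 39.6 CPM in vehicle, with COL1A1 and PDGFRB called lower after Nutlin in both backgrounds, and its part in the results was not tested. Libraries differed by transcript length in 2 groups. The Spearman correlation across genes of a library's deviation from its group with transcript length was 0.317, 0.197 and -0.331 in vehicle_Nutlin replicates 1, 2 and 3 and 0.385, -0.224 and -0.369 in AG120 replicates 1, 2 and 3. It lay between -0.08 and 0.095 in AG120_Nutlin and vehicle. Vehicle_Nutlin replicate 2 had 2110 CPM of MDM2, against 2950 and 3480 CPM in the other libraries of its group. Fits without vehicle_Nutlin replicates 2 and 3 and AG120 replicate 1, chosen with earlier results of these data known, are called fits without the 3 libraries that stand apart. They leave 1 vehicle_Nutlin library, replicate 1, which is assumed to vary like the other groups. That library was itself at 0.317 with transcript length, and the AG120 libraries kept were at -0.224 and -0.369. These fits therefore do not remove the differences by length.

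Nutlin lowered most of the 38 genes, which were chosen with earlier results of these data known, and many of the falls were large. In AG-120 cells 30 of the 38 were lower, 1 (RAD51C) was higher and 7 (FANCE, FANCF, PALB2, RAD50, MUS81, SLX4 and ATM) did not pass the test. The threshold was an adjusted p of 0.05 (edgeR quasi-likelihood test, Benjamini-Hochberg over 15691 genes). Of all tested genes 28.8% were called lower and 27.0% higher in the same comparison. The median log2 fold change was -1.81 over the 38 genes and 0.00 over all tested genes. Of the 38, 24 fell at least 2-fold, 17 at least 4-fold and 11 at least 16-fold, against 15.2%, 6.51% and 1.60% of all tested genes. In vehicle cells the counts were again 30 lower and 1 higher (RAD51C), against 27.1% lower and 26.8% higher of all tested genes, and the 7 not called were FANCF, PALB2, RAD51D, RAD50, MUS81, SLX4 and ATM. There the median was -2.03, against -0.02 for all tested genes, and 24 fell at least 2-fold, 19 at least 4-fold and 9 at least 16-fold, against 13.9%, 5.54% and 1.47% of all tested genes. Of 8 proliferation markers, 7 were lower in every Nutlin library than in any library without it, while PCNA was higher. The part of these markers in the falls was not tested. In bulk RNA, fewer cells in cycle and less of a transcript per cell cannot be told apart.

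**Figure D1:**
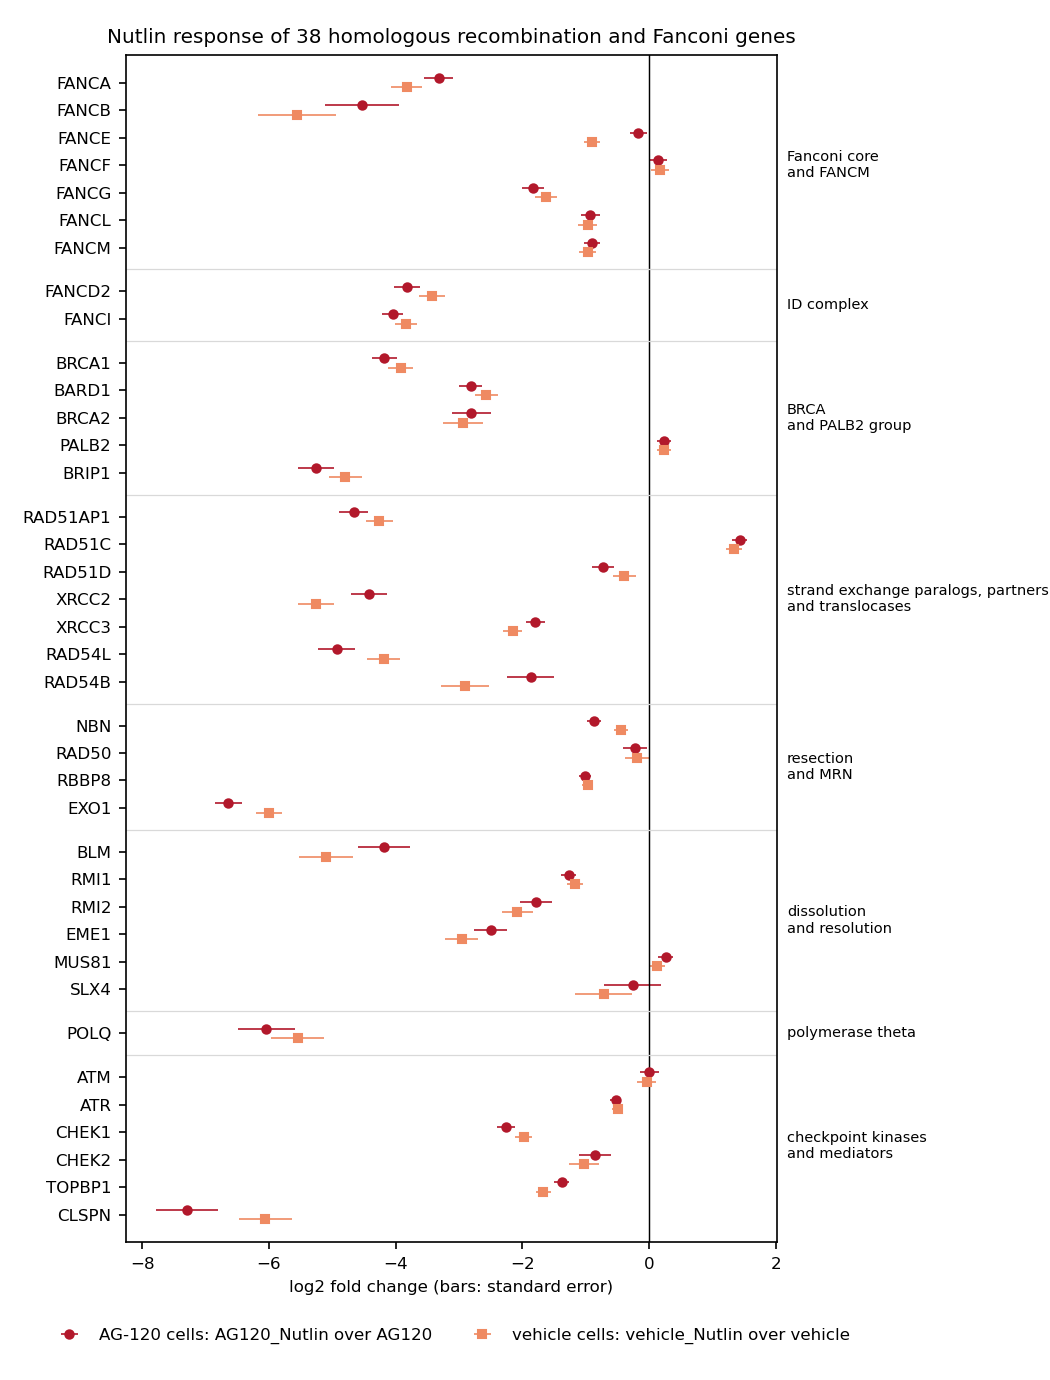
Log2 fold change after Nutlin (horizontal axis, bars are standard errors) of each of the 38 genes, by role, in AG-120 cells (circles, AG120_Nutlin over AG120) and in vehicle cells (squares, vehicle_Nutlin over vehicle). Most genes lie left of 0 in both, down to -7.30 and -6.06 for CLSPN, and RAD51C lies right of 0 at 1.43 and 1.34.

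Among the checkpoint genes CLSPN fell furthest. It encodes Claspin, the adaptor through which ATR activates CHEK1 (hg19 chromosome 1, 36185819 to 36235568). It had 0.181, 0.148 and 0.176 CPM in AG120_Nutlin, against 31.1, 26.4 and 24.2 CPM in AG120. It had 0.318, 1.08 and 0.0427 CPM in vehicle_Nutlin, against 29, 26.5 and 32.3 CPM in vehicle. No Nutlin library came near the level of a library without it. The log2 fold change was -7.30 ± 0.49 (SE) in AG-120 cells (adjusted p = 4.2e-08, edgeR) and -6.06 ± 0.42 in vehicle cells (adjusted p = 7.06e-08, edgeR). The AG120_Nutlin libraries held 3 counts each, so the depth limits how exactly the residual level is known. The vehicle value rested in part on single libraries, with a fold of 66.6 in all libraries, 170.0 without vehicle_Nutlin replicate 2 and 43.1 without vehicle_Nutlin replicate 3.

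The other checkpoint genes fell less. CHEK1, the effector kinase of ATR, fell 4.79-fold in AG-120 cells and 3.94-fold in vehicle cells, where it stood at 9.0 ± 1.47 CPM in vehicle_Nutlin against 35.4 ± 1.79 CPM in vehicle (mean ± SD, n = 3 each). TOPBP1, which activates ATR, fell 2.59-fold in AG-120 cells and 3.18-fold in vehicle cells. CHEK2, the effector kinase of ATM, fell 1.81-fold in AG-120 cells and 2.05-fold in vehicle cells. Its call in AG-120 cells ended without AG120 replicate 2 (-0.69, adjusted p = 0.0505, edgeR). ATR itself fell 1.44-fold in AG-120 cells and 1.41-fold in vehicle cells, with all Nutlin libraries (27.1 to 31.1 CPM) below all libraries without it (38.2 to 46.1 CPM).

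ATM, the kinase that responds to broken ends, was among the genes that changed least. In AG-120 cells it had 56.2, 56.2 and 59.3 CPM with Nutlin, against 72.8, 51.5 and 46.9 CPM without. It had 51.2, 41.0 and 39.0 CPM in vehicle_Nutlin, against 41.3, 45.5 and 47.8 CPM in vehicle. Both pairs of groups overlapped, and the log2 fold changes were 0.00 ± 0.15 (adjusted p = 0.991) in AG-120 cells and -0.04 ± 0.15 (adjusted p = 0.856, edgeR) in vehicle cells. The highest value, 72.8 CPM, is that of AG120 replicate 1, which held more reads of long transcripts. Without the 3 libraries that stand apart, ATM was called higher after Nutlin in AG-120 cells (0.21, adjusted p = 0.0144, edgeR).

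In the Fanconi core and FANCM, 5 of 7 genes fell in AG-120 cells and 6 of 7 in vehicle cells. FANCB, which lies on the X chromosome (hg19 X, 14861529 to 14891191) and forms the catalytic module of the core with the ubiquitin ligase FANCL, had 0.241, 0.197 and 0.0588 CPM in AG120_Nutlin, against 5.06, 3.48 and 3.37 CPM in AG120. It had 0.318, 0 and 0 CPM in vehicle_Nutlin, against 4.31, 6.05 and 4.99 CPM in vehicle. The groups did not overlap in either background. The log2 fold change was -4.53 ± 0.58 in AG-120 cells (adjusted p = 2.13e-05, edgeR) and -5.56 ± 0.62 in vehicle cells (adjusted p = 5.64e-06, edgeR). All 6 vehicle_Nutlin counts came from replicate 1. The other 2 libraries held 0 counts, and a floor of 3 counts over them lay 68.4-fold below the mean of vehicle. That value describes those 2 libraries alone and is no lower bound for the group, whose replicate 1 held 6 counts. The fitted fold was 47.1 in all libraries, 29.5 without replicate 3 and 16.0 without the 3 libraries that stand apart.

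FANCA, a scaffold of the core, fell 9.95-fold in AG-120 cells and 14.2-fold in vehicle cells, where it stood at 1.95 ± 0.698 CPM in vehicle_Nutlin against 27.1 ± 5.15 CPM in vehicle. FANCG, its partner, fell 3.54-fold in AG-120 cells and 3.10-fold in vehicle cells. The ligase FANCL fell 1.90-fold in AG-120 cells and 1.96-fold in vehicle cells. FANCM, the translocase that anchors the core to DNA, fell 1.87-fold in AG-120 cells and 1.96-fold in vehicle cells. FANCE, which contacts FANCD2, was not called in AG-120 cells (-0.17 ± 0.13, adjusted p = 0.282) and was called lower in vehicle cells (-0.90 ± 0.13, adjusted p = 6.58e-05, edgeR).

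FANCF, the adaptor that joins parts of the core (hg19 chromosome 11, 22644079 to 22647387), was called in neither background. It had 15.8, 18.1 and 18.2 CPM in AG120_Nutlin, against 16.9, 15.1 and 15.4 CPM in AG120. It had 18.1, 15.3 and 19.9 CPM in vehicle_Nutlin, against 15.8, 18.2 and 13.7 CPM in vehicle. The groups overlapped in both backgrounds, and the log2 fold changes were 0.14 ± 0.14 in AG-120 cells (95% interval -0.13 to 0.40, adjusted p = 0.412) and 0.17 ± 0.14 in vehicle cells (95% interval -0.10 to 0.43, adjusted p = 0.32, edgeR).

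Both partners of the ubiquitinated complex fell. FANCD2 was at 2.14 ± 0.384 CPM in AG120_Nutlin, 2.78 ± 0.446 in vehicle_Nutlin, 30.3 ± 7.40 in AG120 and 29.8 ± 2.33 CPM in vehicle (mean ± SD, n = 3 each). FANCI was at 7.50 ± 1.05, 8.26 ± 1.66, 124 ± 19.7 and 118 ± 4.72 CPM in AG120_Nutlin, vehicle_Nutlin, AG120 and vehicle. FANCD2 fell 14.2-fold in AG-120 cells and 10.8-fold in vehicle cells, and FANCI fell 16.5-fold and 14.3-fold in AG-120 and vehicle cells. Per kilobase of transcript, FANCI had the highest level of the 38 genes in vehicle cells, 25.0 CPM per kb.

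In the BRCA group 4 of 5 genes fell in each background. BRIP1, the helicase that binds BRCA1 (hg19 chromosome 17, 59758627 to 59940882), had 1.39, 0.74 and 1.00 CPM in AG120_Nutlin, against 43.4, 40 and 35.4 CPM in AG120. It had 2.44, 1.80 and 0.898 CPM in vehicle_Nutlin, against 43.7, 48.7 and 48.5 CPM in vehicle. The groups were far apart, with falls of 38.4-fold in AG-120 cells (-5.26 ± 0.28, adjusted p = 4.57e-09, edgeR) and 27.9-fold in vehicle cells (-4.80 ± 0.26, adjusted p = 6.82e-09, edgeR). BRCA1, a ubiquitin ligase that promotes resection, fell 18.1-fold in AG-120 cells and 15.1-fold in vehicle cells, where it stood at 5.90 ± 1.90 CPM in vehicle_Nutlin against 88.4 ± 8.29 CPM in vehicle. BARD1, its obligate partner, fell 7.06-fold in AG-120 cells and 5.94-fold in vehicle cells. BRCA2, a mediator of strand exchange, fell 7.01-fold in AG-120 cells and 7.69-fold in vehicle cells.

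PALB2, the bridge between BRCA1 and BRCA2, was not called in either background. It had 23.1, 20.7 and 21.9 CPM in AG120_Nutlin, against 20.2, 17.9 and 18.0 CPM in AG120. It had 22.5, 22.6 and 18.7 CPM in vehicle_Nutlin, against 17.7, 18.0 and 18.3 CPM in vehicle, so that no library with Nutlin was below one without it in either background. The log2 fold change was 0.23 ± 0.11 in AG-120 cells (adjusted p = 0.0892) and 0.24 ± 0.11 in vehicle cells (adjusted p = 0.0766, edgeR). It was called higher in AG-120 cells without AG120 replicate 1 (0.29, adjusted p = 0.047), and in vehicle cells without vehicle_Nutlin replicate 3 (0.32, adjusted p = 0.0147, edgeR). Without the 3 libraries that stand apart it was called higher in both, at 0.28 (adjusted p = 0.0103) in AG-120 cells and 0.30 (adjusted p = 0.0254, edgeR) in vehicle cells.

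The strand exchange paralogs and partners moved in both directions. RAD51C, a paralog found in both paralog complexes (hg19 chromosome 17, 56769934 to 56811703), was the 1 gene of the 38 that rose. It had 64.6, 64.0 and 60.9 CPM in AG120_Nutlin, against 19, 25.7 and 25.7 CPM in AG120. It had 56.3, 56.0 and 64.5 CPM in vehicle_Nutlin, against 25.3, 22.1 and 22.7 CPM in vehicle. Every library with Nutlin was above every library without it. The rise was 2.69-fold in AG-120 cells (1.43 ± 0.12, adjusted p = 5.33e-07, edgeR) and 2.53-fold in vehicle cells (1.34 ± 0.12, adjusted p = 1.13e-06, edgeR).

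XRCC2, which works with RAD51C, RAD51B and RAD51D in the larger paralog complex, fell (hg19 chromosome 7, 152341864 to 152373250). It had 0.543, 0.937 and 0.529 CPM in AG120_Nutlin, against 16.1, 13.7 and 14.3 CPM in AG120. It had 0.794, 0.479 and 0.256 CPM in vehicle_Nutlin, against 19.4, 16.1 and 22.2 CPM in vehicle. The groups did not overlap, and the falls were 21.4-fold in AG-120 cells (-4.42 ± 0.28, adjusted p = 2.76e-08, edgeR) and 38.3-fold in vehicle cells (-5.26 ± 0.29, adjusted p = 8.87e-09, edgeR). Without the 3 libraries that stand apart the vehicle value was 24.5-fold. XRCC3, the partner of RAD51C in the other paralog complex, fell 3.49-fold in AG-120 cells and 4.45-fold in vehicle cells, where it stood at 7.80 ± 1.77 CPM in vehicle_Nutlin against 34.5 ± 3.42 CPM in vehicle.

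RAD51D, the remaining paralog of the 38, was called in AG-120 cells, at -0.73 ± 0.18 (adjusted p = 0.00418), and not in vehicle cells, at -0.39 ± 0.18 (adjusted p = 0.0905, edgeR). Without vehicle_Nutlin replicate 3 it was called lower in vehicle cells too (-0.60, adjusted p = 0.00709, edgeR), and likewise without the 3 libraries that stand apart (-0.47, adjusted p = 0.0128) and when libraries were scaled by their totals (-0.48, adjusted p = 0.0365, edgeR). RAD51B, not among the 38, was at 3.98 ± 0.646 CPM in AG120_Nutlin and 4.72 ± 0.386 CPM in AG120. It was at 5.01 ± 1.44 CPM in vehicle_Nutlin and 4.54 ± 0.684 CPM in vehicle. RAD51B was called in neither background, at -0.24 ± 0.22 in AG-120 cells (adjusted p = 0.382) and 0.14 ± 0.22 in vehicle cells (adjusted p = 0.599, edgeR).

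RAD51AP1, which stimulates strand exchange (hg19 chromosome 12, 4647950 to 4669214), had 1.21, 0.937 and 1.65 CPM in AG120_Nutlin, against 23.7, 38.2 and 33.8 CPM in AG120. It had 1.64, 2.04 and 2.18 CPM in vehicle_Nutlin, against 36.8, 38.5 and 37.6 CPM in vehicle. The lowest library without Nutlin, AG120 replicate 1, still lay far above all libraries with it. The falls were 25.4-fold in AG-120 cells (-4.66 ± 0.23, adjusted p = 2.34e-09, edgeR) and 19.1-fold in vehicle cells (-4.26 ± 0.21, adjusted p = 3.44e-09, edgeR). The translocase RAD54L fell 30.6-fold in AG-120 cells and 18.2-fold in vehicle cells. Its relative RAD54B fell 3.65-fold in AG-120 cells and 7.53-fold in vehicle cells, and the vehicle value was 11.6-fold without vehicle_Nutlin replicate 3.

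**Figure D2:**
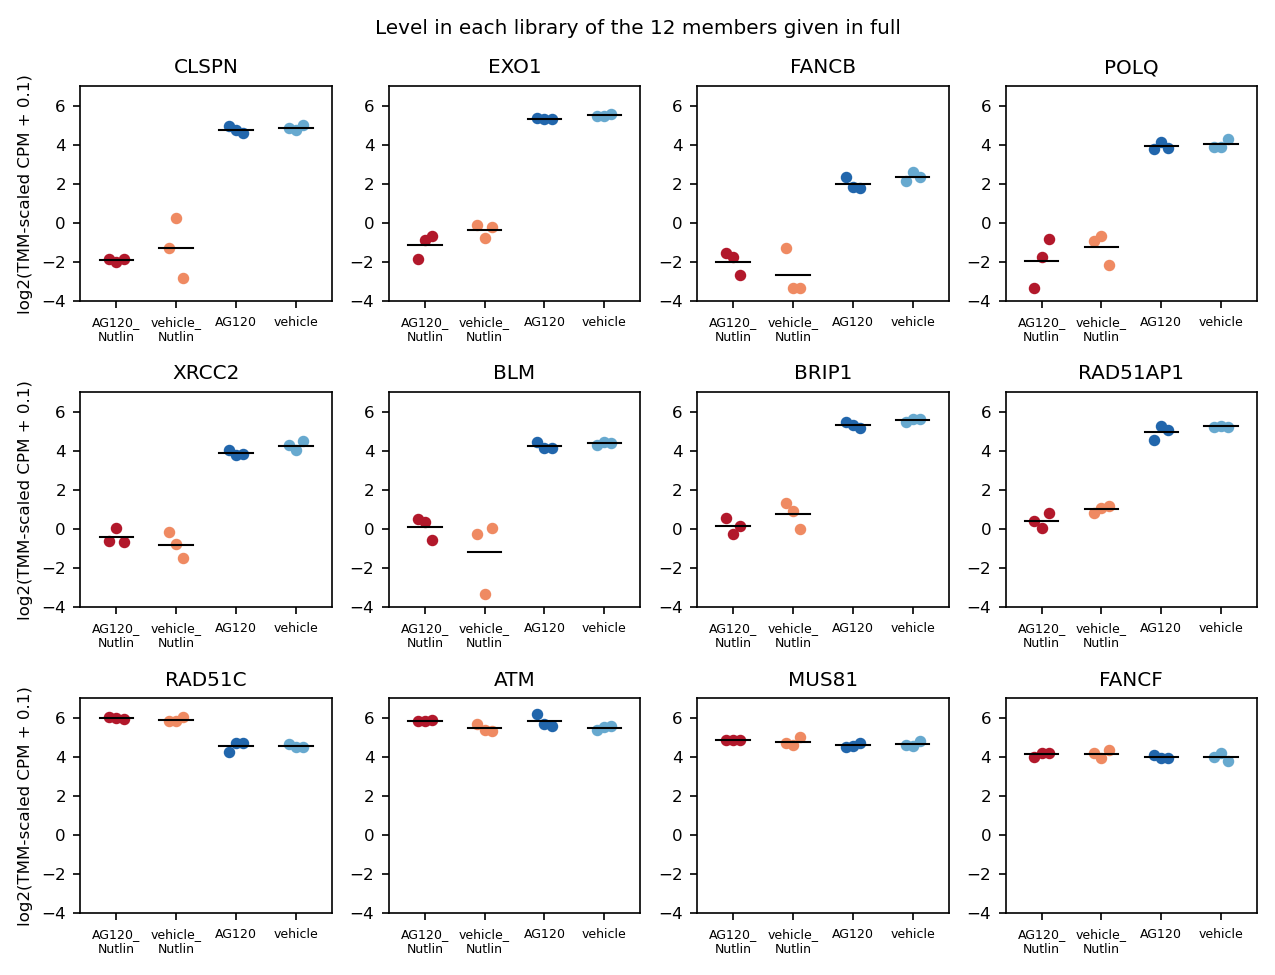
Level of 12 genes in each library, as log2 of TMM-scaled CPM plus 0.1 (vertical axis, log scale), in AG120_Nutlin, vehicle_Nutlin, AG120 and vehicle (left to right; points are libraries and bars are group means on this scale). The first 8 genes lie far lower in both Nutlin groups, RAD51C lies higher there, and ATM, MUS81 and FANCF overlap or lie close between groups.

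The resection genes fell to very different degrees. EXO1, the exonuclease of long-range resection (hg19 chromosome 1, 242011269 to 242058450), had 0.181, 0.444 and 0.529 CPM in AG120_Nutlin, against 40.4, 39.0 and 39.0 CPM in AG120. It had 0.847, 0.479 and 0.769 CPM in vehicle_Nutlin, against 44.6, 44.2 and 48.2 CPM in vehicle. The levels without Nutlin were tight, and the falls were 99.9-fold in AG-120 cells (-6.64 ± 0.22, adjusted p = 6.9e-11, edgeR) and 63.9-fold in vehicle cells (-6.00 ± 0.20, adjusted p = 8.19e-11, edgeR). RBBP8, which encodes CtIP, the factor that starts resection, fell 2.01-fold in AG-120 cells and 1.97-fold in vehicle cells.

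Within the MRN complex, which holds and first trims broken ends, NBN fell 1.82-fold in AG-120 cells and 1.37-fold in vehicle cells. RAD50 did not pass the test in either. It had 123, 127 and 122 CPM in AG120_Nutlin, against 182, 129 and 123 CPM in AG120, where the high value was that of replicate 1. It had 114, 121 and 67.7 CPM in vehicle_Nutlin, against 116, 117 and 113 CPM in vehicle, and the low value was that of replicate 3. The log2 fold change of RAD50 was -0.22 ± 0.19 in AG-120 cells (adjusted p = 0.341, edgeR) and -0.19 ± 0.19 in vehicle cells (adjusted p = 0.413, edgeR). It was -0.03 (adjusted p = 0.921) in AG-120 cells without AG120 replicate 1, and 0.02 (adjusted p = 0.909) in vehicle cells without vehicle_Nutlin replicate 3.

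Joint molecules left by recombination are dissolved by the BLM complex or cut by nucleases, and the genes of these routes differed. BLM, the helicase (hg19 chromosome 15, 91260558 to 91358859), had 1.33, 1.18 and 0.588 CPM in AG120_Nutlin, against 21.7, 17.3 and 17.5 CPM in AG120. It had 0.741, 0 and 0.94 CPM in vehicle_Nutlin, against 19.4, 21.7 and 21.3 CPM in vehicle. The library at 0 was vehicle_Nutlin replicate 2. The falls were 18.1-fold in AG-120 cells (-4.18 ± 0.41, adjusted p = 1.65e-06, edgeR) and 34.4-fold in vehicle cells (-5.10 ± 0.43, adjusted p = 4.99e-07, edgeR), and the vehicle value was 52.5-fold without vehicle_Nutlin replicate 3. Its partners RMI1 and RMI2 fell 2.41-fold and 3.45-fold in AG-120 cells, and 2.25-fold and 4.22-fold in vehicle cells.

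EME1, a regulatory subunit of the MUS81 nuclease, fell 5.64-fold in AG-120 cells and 7.78-fold in vehicle cells. MUS81, the catalytic subunit (hg19 chromosome 11, 65624597 to 65635124), had 28.8, 28.7 and 28.7 CPM in AG120_Nutlin, against 22.3, 23.7 and 26.2 CPM in AG120. It had 26.0, 24.1 and 31.6 CPM in vehicle_Nutlin, against 23.9, 22.9 and 27.9 CPM in vehicle. The AG-120 groups did not overlap and the vehicle groups did, with log2 fold changes of 0.26 ± 0.12 (adjusted p = 0.0872) in AG-120 cells and 0.13 ± 0.12 (adjusted p = 0.382, edgeR) in vehicle cells. MUS81 in AG-120 cells was called higher in a fit of the compared groups alone (0.25, adjusted p = 0.0324) and without vehicle_Nutlin replicate 3 (0.25, adjusted p = 0.0374, edgeR).

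SLX4, the scaffold of these nucleases, was not called in either background. In AG-120 cells its log2 fold change was -0.26 ± 0.45 (adjusted p = 0.651, edgeR). It had 10.5, 15.9 and 2.05 CPM in vehicle_Nutlin, against 14.6, 15.1 and 16.3 CPM in vehicle, and replicate 3 was the low one. The log2 fold change in vehicle cells was -0.72 ± 0.45 (adjusted p = 0.203), and -0.23 (adjusted p = 0.32, edgeR) without that library. It was called lower there without vehicle_Nutlin replicate 2 (-1.32, adjusted p = 0.0273), without the 3 libraries that stand apart (-0.57, adjusted p = 0.00304) and with no filter on low counts (-0.74, adjusted p = 0.00228, edgeR).

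POLQ, the polymerase of the end joining route that competes with homologous recombination (hg19 chromosome 3, 121150278 to 121264853), had 0, 0.197 and 0.47 CPM in AG120_Nutlin, against 13.6, 17.5 and 14.0 CPM in AG120. It had 0.424, 0.539 and 0.128 CPM in vehicle_Nutlin, against 14.8, 14.5 and 19.8 CPM in vehicle. The falls were 65.7-fold in AG-120 cells (-6.04 ± 0.45, adjusted p = 1.38e-07, edgeR) and 47.0-fold in vehicle cells (-5.55 ± 0.42, adjusted p = 1.68e-07, edgeR). The AG-120 value was 132.0-fold without AG120_Nutlin replicate 3.

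The spans of several of these genes overlap another gene in the table: MUS81 overlaps CFL1, EME1 overlaps LRRC59, RAD54L overlaps LRRC41, CHEK1 overlaps STT3A, FANCI overlaps POLG, NBN overlaps DECR1, ATM overlaps NPAT, FANCA overlaps ZNF276, FANCL overlaps VRK2, XRCC3 overlaps KLC1, and CHEK2 overlaps HSCB. The sources used here do not say whether counting used strand, so reads of overlapping parts cannot be assigned with certainty. CFL1 held 140782 counts over the 12 libraries and MUS81 held 6372. Intervals, floors and fitted errors do not cover such misassignment.

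The Nutlin responses in AG-120 and vehicle cells were much alike gene by gene. Of the 38 genes, 36 had the same call in both backgrounds and 29 were lower in both. The log2 fold changes had a Pearson correlation of 0.973 over the 38 genes, which share libraries and are not independent points. Neither these counts nor the correlation are given here for all tested genes. The likeness is therefore not shown to be particular to the 38. Of the 29 genes lower in both, 16 fell more in AG-120 cells. The median absolute difference between the backgrounds was 0.29 on the log2 scale and the highest was 1.24, for CLSPN. The genes with differing calls were FANCE, lower in vehicle cells, and RAD51D, lower in AG-120 cells. The difference itself was tested as the interaction of AG-120 and Nutlin, and passed the threshold for none of the 38 genes with edgeR and for 0 with DESeq2, with 2 (FANCE and NBN) at an unadjusted p under 0.05, where 11.0% of all tested genes had one. Of all tested genes 0.363% were called in the interaction. FANCE had the smallest adjusted p, 0.135 (0.73 ± 0.18, edgeR), and RAD51D had 0.645 (-0.35 ± 0.26). The 95% interval of the interaction lay within 2-fold in either direction for 24 of the 38 genes. The widest standard error was 1.09, for FANCB.

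AG-120 without Nutlin left the levels of these genes close to those in vehicle cells. Of the 38, 0 passed the test with edgeR and 0 with DESeq2, and 2 (ATM and FANCE) had an unadjusted p under 0.05, as did 7.99% of all tested genes. Of all tested genes 0.051% were called. The log2 fold changes ran from -0.41 (EME1) to 0.35 (ATM) with a median of -0.09, against 0.00 for all tested genes, and 26 of 38 were negative. The 95% interval lay within 2-fold in either direction for 37 of the 38. Libraries of AG120 and vehicle did not overlap for 9 genes. Of the 38, 8 were lower in this way (FANCA, FANCE, BRIP1, XRCC3, RAD54B, EXO1, RMI1 and RMI2), a larger share than the 10.3% of all tested genes. Only 1 (RAD50) was higher, a smaller share than the 11.4% of all tested genes. These differences in share were not tested. BRIP1 was called lower without the 3 libraries that stand apart (-0.32, adjusted p = 0.0458, edgeR). Proliferation markers summed to 2110 to 2340 CPM in AG120, below the 2410 to 2530 CPM in vehicle, and their part in these values was not tested.

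**Figure D3:**
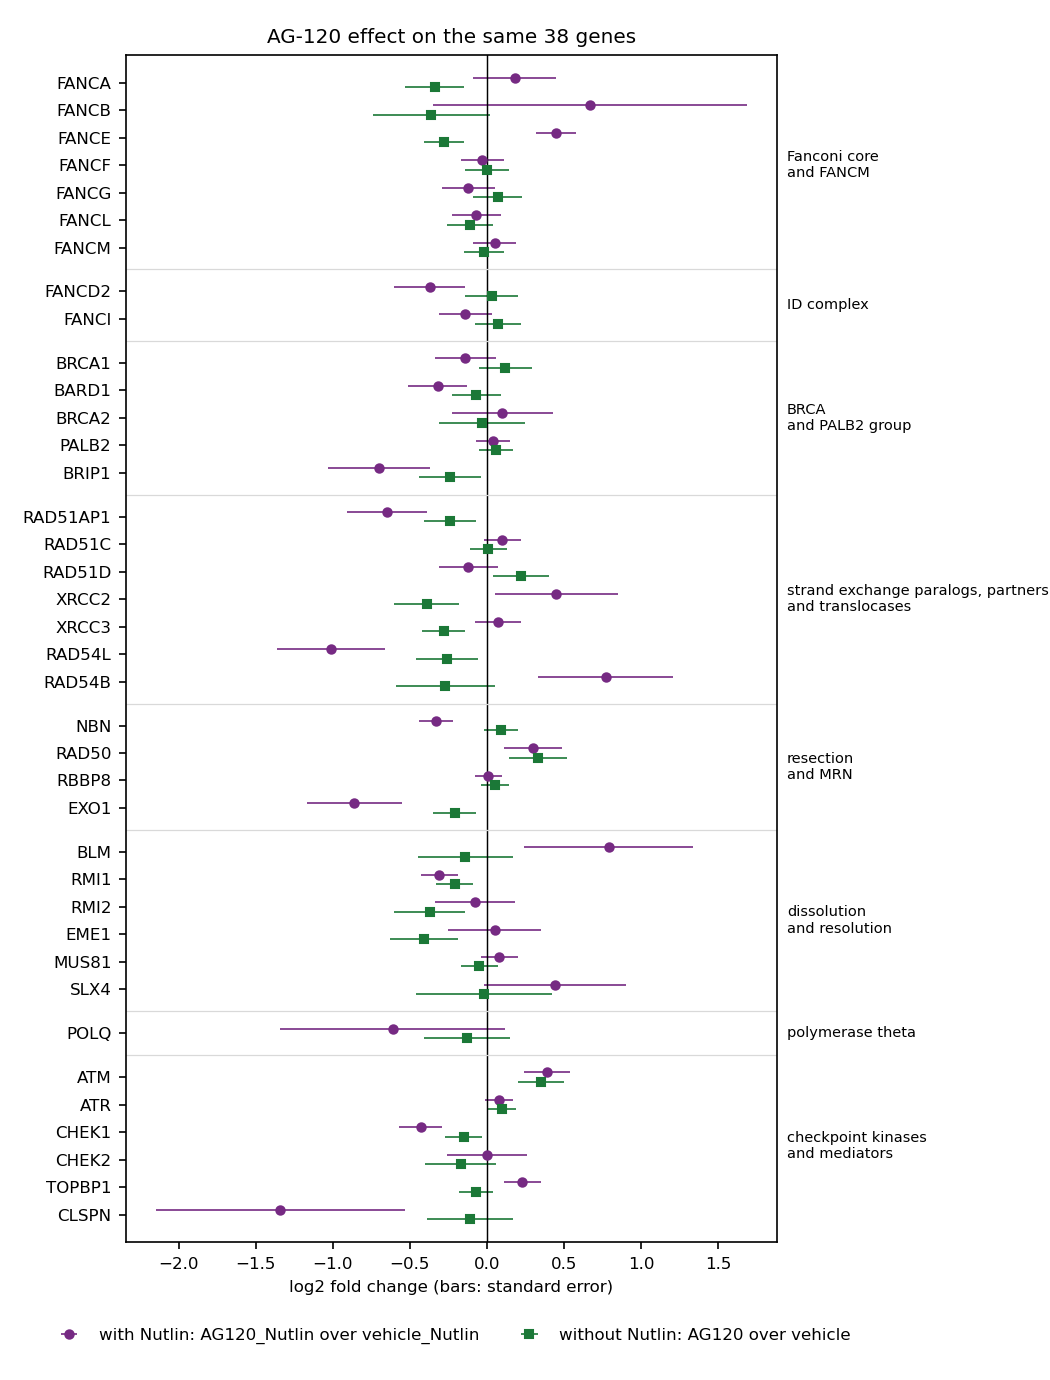
Log2 fold change with AG-120 (horizontal axis, bars are standard errors) of the 38 genes, by role, with Nutlin (circles, AG120_Nutlin over vehicle_Nutlin) and without Nutlin (squares, AG120 over vehicle). Without Nutlin all values lie between -0.41 and 0.35, and with Nutlin they spread from -1.34 to 0.79 with wider errors.

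Under Nutlin, AG-120 again gave no call with edgeR among the 38, against 2.36% of all tested genes. DESeq2 called RAD54L (-1.02, adjusted p = 0.0416), and 8 genes (21.1%) had an unadjusted p under 0.05 with edgeR, close to the 19.5% of all tested genes. Of these, CHEK1 (-0.43 ± 0.14, adjusted p = 0.121), EXO1 (-0.86 ± 0.31, adjusted p = 0.174), NBN (-0.33 ± 0.11, adjusted p = 0.137), RAD51AP1, RAD54L (-1.01 ± 0.35, adjusted p = 0.138) and RMI1 (-0.31 ± 0.12, adjusted p = 0.194) were negative. ATM (0.39 ± 0.15, adjusted p = 0.195) and FANCE (0.45 ± 0.13, adjusted p = 0.0913) were positive. RAD54L had 1.09, 0.444 and 0.588 CPM in AG120_Nutlin, against 1.22, 2.10 and 0.983 CPM in vehicle_Nutlin, and the groups overlapped. FANCE had 6.93, 7.30 and 8.11 CPM in AG120_Nutlin, against 5.67, 5.57 and 5.09 CPM in vehicle_Nutlin, and did not overlap.

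Of the 38, RMI1 and CHEK1 were lower and FANCE, RAD50 and ATM higher in AG120_Nutlin without overlap with vehicle_Nutlin, where 14.1% and 14.2% of all tested genes did the same. The median log2 fold change was 0.01, and the 95% interval lay within 2-fold in either direction for 27 of the 38. Of 8 proliferation markers 7 were negative in the same comparison, with a median of -0.45. TOP2A (-0.53, adjusted p = 0.0157) and CCNB1 (-0.52, adjusted p = 0.0492, edgeR) were called lower, and their part in these values was not tested. Without vehicle_Nutlin replicate 3 BRIP1 was called lower (-1.05, adjusted p = 0.0336), and without vehicle_Nutlin replicate 1 NBN was (-0.42, adjusted p = 0.0444, edgeR). RAD54L was called lower with no filter on low counts (-1.02, adjusted p = 0.0236, edgeR). Without the 3 libraries that stand apart BRIP1 was called lower (-1.24, adjusted p = 0.0127, edgeR).

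Other repair genes, taken by pathway, moved in both directions. Of 34 other tested genes of homologous recombination and the Fanconi pathway, 15 fell in AG-120 cells and 15 in vehicle cells after Nutlin, while 7 rose in AG-120 cells and 9 in vehicle cells. The medians were -0.26 in AG-120 cells and -0.27 in vehicle cells. UBE2T, the ubiquitin-conjugating enzyme of the Fanconi core, fell 14.1-fold in AG-120 cells and 10.8-fold in vehicle cells. DNA2, a nuclease of long-range resection, fell 6.31-fold in AG-120 cells and 8.32-fold in vehicle cells, and USP1, which removes ubiquitin from FANCD2, fell 3.01-fold in AG-120 cells and 3.66-fold in vehicle cells.

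Of 13 genes of the 9-1-1 clamp, ATR activation and fork protection, 9 fell in AG-120 cells and 8 in vehicle cells, and 0 rose (medians -0.57 in AG-120 cells and -0.66 in vehicle cells). Among them the phosphatase CDC25A, a target of CHEK1, fell 11.3-fold in AG-120 cells and 9.88-fold in vehicle cells, and the fork protection partners TIMELESS and TIPIN fell 2.77-fold and 4.04-fold in AG-120 cells and 3.60-fold and 4.36-fold in vehicle cells. Of 9 chromatin signalling genes of broken ends, 6 fell in AG-120 cells and 5 in vehicle cells, and 0 rose (medians -0.57 in AG-120 cells and -1.02 in vehicle cells). H2AFX, the histone variant marked at breaks, fell 11.5-fold in AG-120 cells and 10.5-fold in vehicle cells.

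Non-homologous end joining, which needs no sister chromatid, was split. Of 11 genes, 4 fell in each background, and 5 rose in AG-120 cells and 4 in vehicle cells (medians 0.28 in AG-120 cells and 0.09 in vehicle cells). The polymerase POLL rose 2.22-fold in AG-120 cells and 2.27-fold in vehicle cells, and the ligase LIG4 rose 1.97-fold in AG-120 cells and 1.75-fold in vehicle cells, while the kinase PRKDC fell 3.26-fold in AG-120 cells and 3.27-fold in vehicle cells. Of 20 mismatch, base and nucleotide excision genes, 9 fell in AG-120 cells and 10 in vehicle cells, while 2 rose in AG-120 cells and 3 in vehicle cells (medians -0.38 in AG-120 cells and -0.33 in vehicle cells). MSH6, a mismatch sensor, fell 4.53-fold in AG-120 cells and 3.87-fold in vehicle cells. These counts stand beside 28.8% lower and 27.0% higher among all tested genes in AG-120 cells, and 27.1% and 26.8% in vehicle cells. The difference between the lists was not tested.

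**Figure D4:**
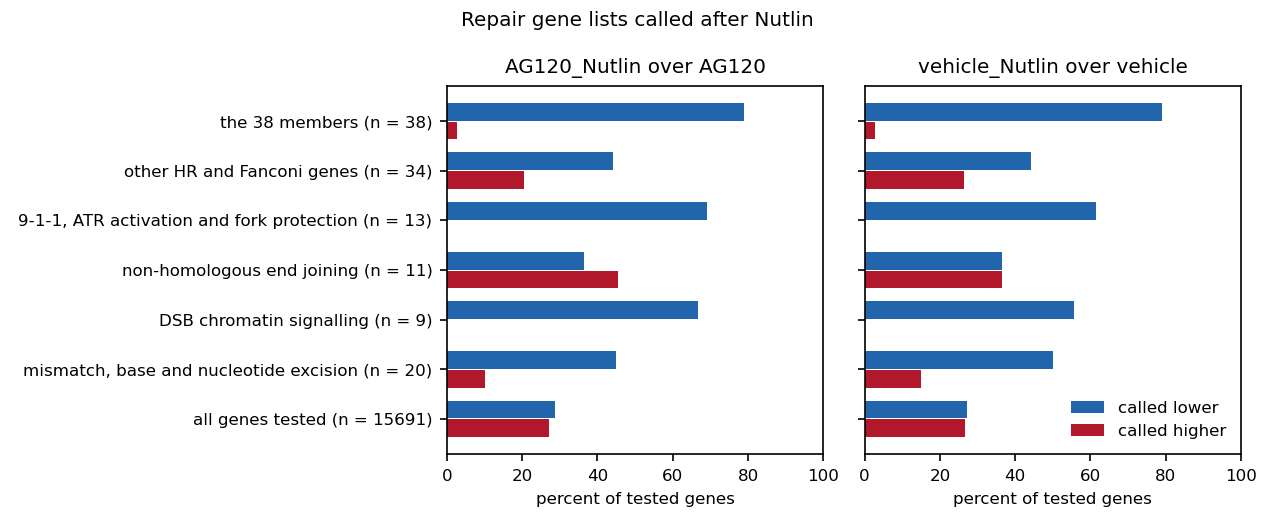
Percent of tested genes called lower and called higher after Nutlin (horizontal axis) in the 38 genes, in 5 other repair gene lists and in all tested genes, for AG120_Nutlin over AG120 (left) and vehicle_Nutlin over vehicle (right). Of the 38 genes 78.9% were lower in each panel, against 28.8% and 27.1% of all tested genes.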

How the data were processed

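Poly(A) RNA of RBE cells was sequenced by a service company with paired reads of 150 bases, per the labels' protocols. The authors deposited 1 table of raw read counts per gene symbol for all 12 libraries, with no normalization. The submitters' processing notes name Partek, STAR, HTSeq, DESeq2 and hg19, without versions, and do not say which made the counts. Gene positions come from that table (hg19, with 1 base subtracted from the stop, tested on 13 mitochondrial coding genes).

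Groups were taken from the labels. Tests used edgeR 4.0.16 under R 4.3.3: filterByExpr on the 4 groups, TMM scaling, 1 quasi-likelihood model with a term per group, glmQLFTest for each contrast, and Benjamini-Hochberg adjustment over 15691 genes. Standard errors were derived from the F statistic of each test and are approximate, and 95% intervals are 1.96 times as wide to each side. Levels are CPM after TMM scaling, with mean and SD over each group. Transcript lengths are the longest per gene in GENCODE release 29, and promoters are from RefSeq (GRCh38.p14). The pipeline was tested on simulated data. Floors cover counting error only, because reads carried no molecular identifiers.

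The 38 genes, the other gene lists and the alternatives were chosen with earlier results of these data known. Values in every library are given for the 8 most negative and all called positive changes after Nutlin in vehicle cells, the 3 changes closest to 0 and any gene called for AG-120 or the interaction. RAD50, PALB2, SLX4, RAD54L and FANCE were added after their values were seen, and RAD51B was named for its place in a complex. The single markers TOP2A, CCNB1, CCNA2, MCM2, PCNA, COL1A1, COL1A2, COL3A1 and PDGFRB were also named after their values were seen. The same holds for the single biliary markers. Genes outside the 38 are named by the smallest adjusted p in their list, up to 4 each. The results of some genes that these rules name are not reported here. Alternatives were DESeq2 1.42.0, other scalings and filters, a fit of the compared groups, the replicate block, a transcript length adjustment (lengths for 86.1% of tested genes), and leaving out libraries.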

Additional observations from a re-analysis of the deposited data

How the results depend on the processing

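The counts of called genes held closely. After Nutlin in AG-120 cells 29 to 30 of the 38 genes were lower under the alternatives run, and in vehicle cells 30 to 32. Of 372 values with 1 library left out for the genes called in AG-120 cells, 371 stayed called, CHEK2 being the exception. In vehicle cells all 372 stayed called (highest adjusted p = 0.0222, edgeR). In AG-120 cells the number higher was 1 to 2 with 1 library left out, 2 in a fit to the compared groups alone and 3 without the 3 libraries that stand apart. In vehicle cells it was 1 to 2 with 1 library left out (PALB2 joining RAD51C), and 2 without the 3 libraries. For AG-120 without Nutlin the number lower was 0, and 1 without the 3 libraries. Under Nutlin it was 1 with DESeq2, with no filter and without the 3 libraries, and 0 to 1 with 1 library left out. No gene of the 38 was called in the interaction under any alternative run, and no called value changed sign. The cause of these changes was not tested. Counts over all genes moved more. After Nutlin they ran from 3868 to 5744 lower and 3735 to 5442 higher in AG-120 cells. In vehicle cells these ranges were 3467 to 4850 lower and 3512 to 4732 higher. For AG-120 the ranges were 0 to 300 lower and 1 to 608 higher without Nutlin, and 15 to 745 and 0 to 629 under Nutlin. In the interaction they were 22 to 452 and 1 to 185.

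Replicate numbers gave no clear sign of pairing: over 18 pairs of same-numbered libraries the deviations from the group mean correlated between -0.224 and 0.116, with 1 pair over 0.1. Differences between libraries by transcript length could hide a shared effect, so these values do not settle whether samples were paired. With the replicate number as a block, 30 of the 38 genes were lower and 1 higher after Nutlin in each background, and 0 were called for AG-120 or the interaction. With 3 counts per library, as for CLSPN in AG120_Nutlin, depth limits the size of the largest falls.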
